A study of Homo sapiens with 10 samples.

Results

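The stretch of human 28S rRNA from G2900 to C3659, which covers expansion segment 27, was examined position by position. Its members are the 760 consecutive positions of 28S between these bounds, out of 5070 positions in 28S and 6939 in 18S and 28S together, and they were chosen by position alone. The numbering starts with 0 at the 5′-end of 28S. Expansion segments are insertions that eukaryotic rRNAs carry beyond the conserved core. Expansion segment 27 is among the longest of them, a mobile RNA arm on the surface of the large subunit that can swing towards the exit of the peptide tunnel and there take part in the recruitment of enzymes that act on the nascent chain. 2′-O-methylation of rRNA is placed mostly by the methyltransferase fibrillarin, which box C/D snoRNAs guide to their targets by base pairing, and the sites gather in the conserved core rather than in expansion segments.

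All libraries were made by RibOxi-seq from total RNA of PA1 cells, an established human line derived from an ovarian teratoma. The RNA was fragmented with the nuclease Benzonase. For the oxidized libraries, 3′-terminal bases were then removed by β-elimination and periodate destroyed the remaining 3′-ends without a 2′-O-methyl group, so that chiefly methylated ends could be ligated. The non-oxidized libraries, here called control, skipped both steps and hold the ends that the nuclease left. The NextSeq experiment had 3 control and 3 oxidized libraries, with cells of passage 6 behind replicates 1 and 2 and cells of passage 4 behind replicate 3 in both groups. The earlier MiSeq pilot had 2 control and 2 oxidized libraries, all from passage 7. The count at a position is the number of sense alignments whose 3′-end lies there. The labels do not say that replicates were separate cultures, so the P-values measure only the spread between these libraries, and rRNA positions alone cannot check the cell line.

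Total counts were 72458614 to 80964624 in NextSeq control, 12293410 to 13694386 in NextSeq oxidized, 30392418 to 44061905 in MiSeq control and 1353768 to 1568883 in MiSeq oxidized libraries. Low counts come in steps of about 50, and where reads are given they assume 50 counts per read. NextSeq control replicate 3 stood apart from the other NextSeq controls. Across the 760 positions, Spearman's rho was 0.98 between control replicates 1 and 2, 0.48 between replicates 1 and 3 and 0.48 between replicates 2 and 3, as a description over positions of libraries that share their sequence. NextSeq oxidized replicates 2 and 3 did not differ detectably beyond the sampling noise of such reads over all positions (chi-square per degree of freedom 1.01, P = 0.339), although their passages differ, whereas replicates 1 and 2 gave 2.58. Where a mean ± SD of NextSeq oxidized libraries is given (n = 2), replicates 2 and 3 therefore count as 1 sample. The 2 oxidized MiSeq libraries did not differ detectably either by the same chi-square test, but they are the only pair of their group and were kept as 2 samples, so that their spread may be that of 1 library. NextSeq control replicates 1 and 2 differed by the same chi-square test, but little (1.11 per degree of freedom, P = 2.33e-09, against 191 and 203 to replicate 3). They were kept as 2 samples, so that each SD over NextSeq controls (n = 3) includes 2 nearly alike libraries. The tests used all 6 NextSeq libraries. Values with the closest libraries averaged (control replicates 1 and 2, oxidized replicates 2 and 3) are given for the counts of lower calls, for G3626 and for G3625.

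In hg19 (GRCh37) the 760 positions lie on the plus strand of the unplaced contig GL000220.1, from 116248 to 117007, inside the 28S rRNA. An identical copy lies at 160220 to 160979 of the same contig, so that reads of the copies cannot be told apart. G and C made up 84.6% of the stretch, against 66.8% of the rest of 28S and 56.1% of 18S. It holds 338 C, 305 G, 69 U and 48 A, with 12 runs of at least 6 C or 6 G, of which the longest has 11 letters. The last 15 letters before a 3′-end recur elsewhere in 18S or 28S for 10 of the 760 positions, and the last 25 letters for none.

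Of the 2′-O-methylation sites that the study took as known, 40 lie in 18S and 66 in 28S, and a single one, G3626, falls into the stretch. The next known site towards the 5′-end is G2875, 751 nt before it, and the next towards the 3′-end is C3700, 74 nt after it. The surroundings of G3626, of the position with the most ends in the NextSeq control libraries (G3256), of the position with the most in the MiSeq control libraries (A3129) and of the blind run described below are shown first, since the results turn on them. They are written 5′ to 3′ as the reference has them, with T for U. The capitals mark the named position or, in the last one, the run.
G3626, GL000220.1:116960-116988: tggtgcggaccaggGgaatccgactgttt
G3256, GL000220.1:116590-116618: ctggacgcgagccgGgcccttcccgtgga
A3129, GL000220.1:116463-116491: ggcggcggggggagAagggtcggggcggc
Run without counts, GL000220.1:116820-116885: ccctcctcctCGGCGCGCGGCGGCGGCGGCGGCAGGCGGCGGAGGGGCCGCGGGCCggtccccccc

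Oxidized libraries gave 1 strong peak in the stretch, at G3626, over a background close to 0 in the NextSeq libraries. In the oxidized MiSeq libraries the peak held only 25.3% and 26.3% of the counts of the stretch. The other 759 positions together held no more counts than about 155 to 259 reads per oxidized library, against about 52118 to 113446 reads per control library. In the profile of 3′-ends along the stretch, control libraries had ends nearly everywhere except in 1 run of 46 positions.

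**Figure D1:**
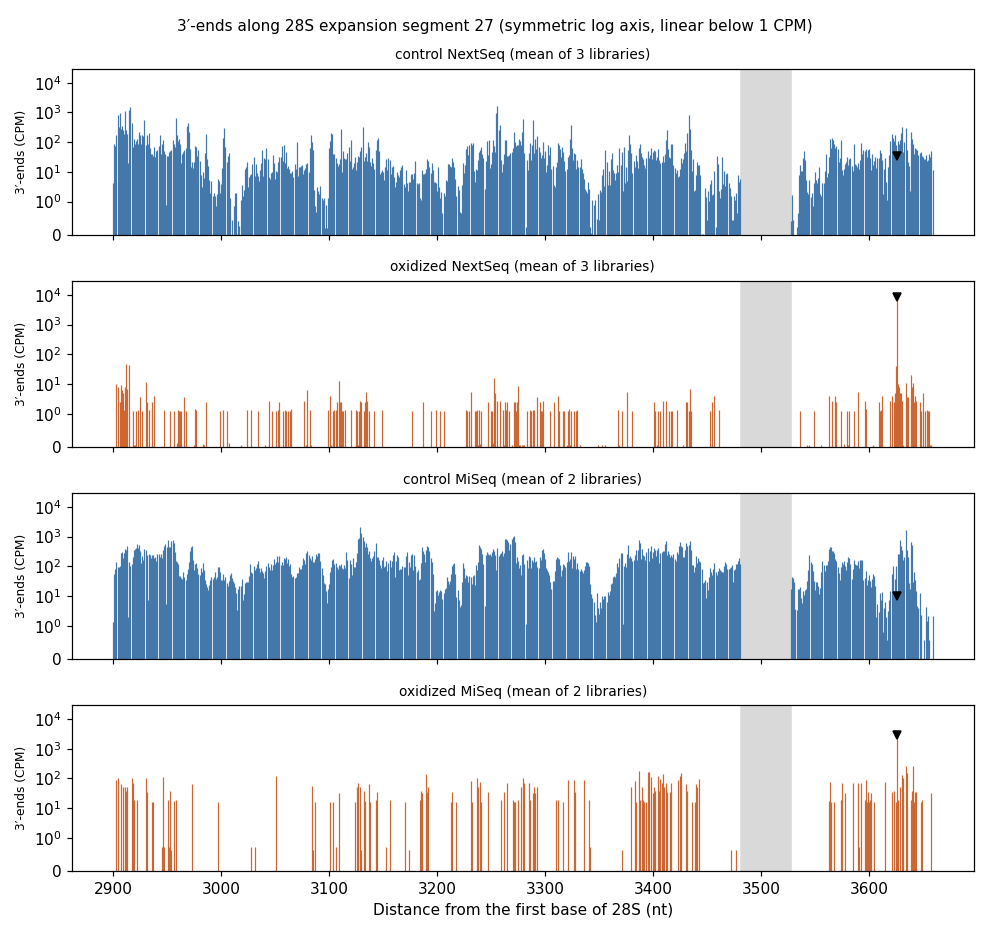
3′-ends in counts-per-million (CPM, symmetric log axis, linear below 1 CPM) against the distance from the first base of 28S, as the mean of the libraries of each group. The triangle marks the known site G3626 and the grey band the 46 positions without a count in any library. The peak of the oxidized panels stands at G3626 (8780 CPM as the mean of the 3 NextSeq and 2820 CPM as the mean of the 2 MiSeq libraries), where the control panels have 33.8 and 10.1 CPM.

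At G3626, the oxidized NextSeq libraries had 116332, 107360 and 120766 counts, and the control NextSeq libraries had 2516, 3880 and 1416. All oxidized libraries lay far above all controls although their totals were smaller. As a share of the library this was 8788, 8733 and 8819 CPM in oxidized and 34.7, 47.9 and 18.8 CPM in control libraries, a ratio of 260 between the means. The log2 fold change was 11.82 (SE 0.96) with an adjusted P-value of 0.00168 (quasi-likelihood test of edgeR, Benjamini-Hochberg adjusted over 6718 positions of 18S and 28S). With the closest libraries averaged it was 12.22, with an adjusted P-value of 1.66e-06.

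The MiSeq pilot libraries had 4396 and 3841 counts at G3626 after oxidation and 600 and 202 without it. These are 2802 and 2837 CPM against 13.6 and 6.65 CPM, a ratio of 278 between the means, and again no oxidized library overlapped a control. The log2 fold change was 8.35 (SE 0.65), with an adjusted P-value of 0.00693 over 6661 positions by the same test. Taking the replicate number as a block left it at 8.47 but raised the adjusted P-value to 0.166. The fitted change was 2.99 lower in the MiSeq than in the NextSeq libraries on the log2 scale (SE 1.02), a difference that did not pass its test (adjusted P-value 0.107, interaction term of edgeR's quasi-likelihood fit over all 10 libraries). Scaled by library totals in place of TMM factors, the fold changes were 8.02 and 8.12 and their difference 0.10 (SE 0.80, adjusted P-value 1). The size of the fold change thus depended on the scaling, in libraries where the known sites took 94.8% to 95.2% of NextSeq and 59.2% to 59.3% of MiSeq oxidized counts.

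Among the 106 known sites, G3626 ranked 16th by mean oxidized CPM in the NextSeq and 49th in the MiSeq libraries, where the medians over the known sites were 2371 and 2200 CPM. By log2 fold change it ranked 44th and 79th, against medians of 11.11 and 10.29. The nearest known sites on either side also passed the test. G2875 had 821, 1255 and 12098 counts in NextSeq control and 29142, 33666 and 35805 in oxidized libraries (log2 fold change 9.77, SE 1.20, adjusted P-value 0.0100), and C3700 had 504, 254 and 102 against 19741, 18271 and 22000 (12.40, SE 1.30, adjusted P-value 0.00436).

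A methylated ribose blocks cleavage behind it, so a known site can leave a gap in the ends of the control libraries. Relative to the median of its neighbours, 10 on each side, the count at G3626 was 0.543, 0.790 and 0.162 in the NextSeq controls and 0.126 and 0.0394 in the MiSeq controls, and was thus below 1 in each of the 5 libraries. The gap was deeper in MiSeq than in NextSeq controls, and in NextSeq control replicate 3 deeper than in the others. Among the known sites the ratio of G3626 was the 21st highest of 106 in the NextSeq and the 47th highest of 104 in the MiSeq libraries, where the medians were 0.217 and 0.0651. With 20 positions on each side the ratio was 1.14, 1.49 and 0.229 in the NextSeq and 0.644 and 0.251 in the MiSeq controls, so that NextSeq control replicates 1 and 2 no longer showed a gap. The means were then 0.952 and 0.448, in place of 0.498 ± 0.316 (SD, n = 3) and 0.0828 ± 0.0614 (SD, n = 2). The depth of the gap in NextSeq controls therefore depends on how far the comparison reaches.

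**Figure D2:**
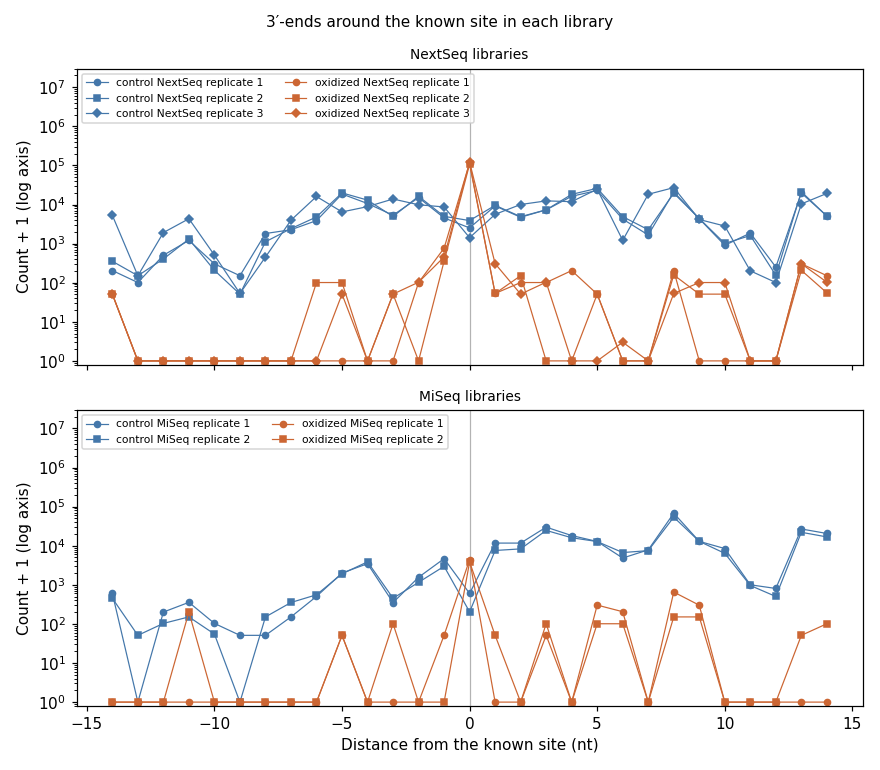
Counts plus 1 (log axis) from 14 nt before to 14 nt after the known site G3626 in each library, for the NextSeq (top) and MiSeq (bottom) experiment. Oxidized libraries rise at 1 position, to 107360 to 120766 counts in NextSeq and 3841 to 4396 in MiSeq libraries, while the control libraries dip there relative to the position on either side.

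The peak was 1 nt wide. G3625, the base before the site, had 764, 354 and 454 counts in the oxidized NextSeq libraries, which is 0.657%, 0.330% and 0.376% of the count at the site itself. It was the position beside the site with the most oxidized ends, and its share was near the median of 0.462% over 103 known sites. Its control counts were 4544, 4979 and 8656. In the edgeR fit its log2 fold change was 3.06 (SE 0.69, adjusted P-value 0.0359). With RLE size factors, another scaling, it was 2.83 (adjusted P-value 0.0343), and by the Wald test of DESeq2, the study's tool, 2.83 (3.7e-06). With library totals only it was -0.997 and not called, so that its direction depends on the scaling. The call was also lost with the closest libraries averaged (adjusted P-value 0.162), with the replicate block (0.204) and with counts divided by 50 (0.0943). In the MiSeq libraries it had 50 and 0 oxidized counts against 4667 and 2970 in control, with no call (-2.42, SE 1.94, adjusted P-value 0.341).

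G3627, the base after the site, had 52, 52 and 306 oxidized NextSeq counts, and control counts of 9200, 9514 and 5609. In the edgeR fit with TMM factors it was called in neither experiment (adjusted P-values 0.772 in NextSeq and 0.210 in MiSeq). All 20 positions within 10 nt of the site together held 1113 to 1569 oxidized counts in NextSeq libraries, or 1.04% to 1.35% of the count at the site, and 800 to 1608 in MiSeq libraries, or 20.8% to 36.6%. In the control libraries the same 20 positions held 154846 to 199077 counts. Of the 5 positions on each side, C3622 was at 0 in every oxidized library of both experiments and was called lower in both (adjusted P-values 0.0359 and 0.00693), whereas C3621, A3623, G3627 and C3631 were called in neither. With counts divided by 50, C3622 lost its NextSeq call (adjusted P-value 0.0943). With library totals only, C3621, A3623, G3627 and C3631 were called lower in NextSeq libraries (adjusted P-values 0.0401, 0.0429, 0.0311 and 0.0197).

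The stretch held a smaller part of the background ends in every oxidized than in every control library. Background means all counts outside the known sites, so it still holds the candidates that the paper reports as new. A candidate that the paper tested by primer extension lies outside the stretch, between 3660 and 3899. The part of such candidates in the drop was not tested. Of all counts outside the known sites, the stretch held 4.67%, 4.45% and 3.48% in NextSeq control replicates 1, 2 and 3, and 1.58%, 1.21% and 1.20% in the oxidized replicates. In MiSeq libraries it held 12.9% and 10.95% in control and 2.02% and 1.95% in oxidized libraries. The groups did not overlap in either experiment. The means were 4.20 ± 0.634% (SD, n = 3) against 1.39 ± 0.266% (SD, n = 2) in NextSeq and 11.9 ± 1.38% (SD, n = 2) against 1.99 ± 0.0502% (SD, n = 2) in MiSeq libraries. The two-sided exact permutation P-values were 0.1 and 0.33, the smallest that 3 against 3 and 2 against 2 libraries allow, so that this design cannot pass 0.05. With oxidized replicates 2 and 3 counted as 1 sample, the NextSeq P-value of the same test was 0.2.

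Of all counts, known sites included, the stretch held 3.45% to 4.66% in NextSeq control and 0.936% to 0.955% in oxidized libraries, and 10.9% to 12.9% and 1.08% to 1.11% in MiSeq libraries (exact permutation P = 0.1 and 0.33, again the smallest possible). G3626 alone made up 92.0%, 93.3% and 93.6% of what oxidized NextSeq libraries had in the stretch, but 25.3% and 26.3% in the oxidized MiSeq libraries. Taken over reads, the 95% Wilson intervals of these shares were 90.8% to 93.0%, 92.2% to 94.2%, 92.6% to 94.5%, 20.9% to 29.97% and 21.4% to 31.5%. Such intervals, like the limits of a count of 0 below, cover counting error only. In control libraries the share of the site was 0.00608% to 0.108%.

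Per position, the stretch had fewer ends than the rest of 28S in all 10 libraries. Known sites left out, control libraries had 61.3, 58.4 and 45.5 CPM per position in the stretch against 185 to 187 in the rest of 28S in the NextSeq, and 170 and 144 against 187 and 189 in the MiSeq experiment. Oxidized libraries had 0.790 to 1.01 against 8.15 to 9.09 CPM in NextSeq and 10.5 and 10.9 against 74.4 and 75.0 CPM in MiSeq libraries. The ratio of the stretch to the rest of 28S averaged -1.17 ± 0.84 on the log2 scale over the 5 control libraries and -3.10 ± 0.32 over the 5 oxidized libraries, here counted separately. Each was below 0 in 5 of 5 libraries, with a two-sided exact sign-flip permutation P of 0.062, the smallest that 5 libraries allow. The deficit was small in the MiSeq controls (-0.14 and -0.39) and larger in the NextSeq controls (-1.60, -1.66 and -2.04). By the median per position in place of the mean, the control ratio averaged -1.07 (exact sign-flip permutation P = 0.25) and was above 0 in both MiSeq controls, whose median position had 105 and 89.5 CPM in the stretch against 63.9 and 68.0 CPM in the rest of 28S.

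**Figure D3:**
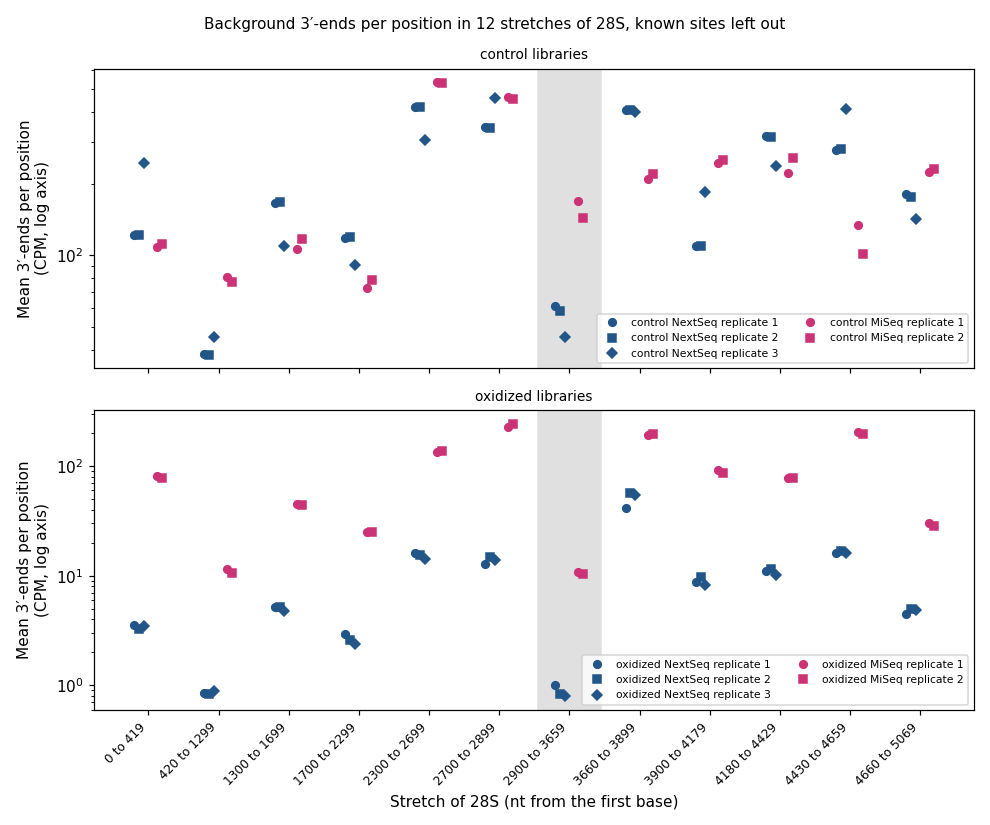
Mean 3′-ends per position (CPM, log axis) in 12 stretches of 28S, known sites left out, for each control (top) and oxidized (bottom) library. The grey band is the stretch from 2900 to 3659, which has 0.790 to 1.01 CPM in the oxidized NextSeq libraries and 10.5 and 10.9 in the oxidized MiSeq libraries, beside the stretch with expansion segment 7 (420 to 1299) at a like level.

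When 28S was cut into 12 stretches, the one from 420 to 1299, which covers the long expansion segment 7 and has 82.5% G and C and no known site, was the most like it. The stretches with expansion segments 7 and 27 were the 2 lowest of the 12 in each NextSeq library and in each oxidized MiSeq library. The one with expansion segment 27 was the lowest in replicate 3 of both NextSeq groups and in both oxidized MiSeq libraries, and the one with expansion segment 7 in the others. The levels in the stretch with expansion segment 27 were 0.886 to 1.17 times those in the stretch with expansion segment 7 in oxidized libraries, above it in 2 of 5. In the MiSeq controls they were 2.09 and 1.86 times as high, and the stretch ranked 6th from the lowest. In the NextSeq controls they were 1.60, 1.53 and 0.999 times as high, the last in replicate 3. The stretch from 3660 to 3899, which holds a new candidate of the paper, was the highest of the 12 in oxidized NextSeq libraries (41.7, 57.4 and 54.5 CPM). It was also high in the NextSeq controls (401 to 411 CPM). In oxidized MiSeq libraries it had 191 and 195 CPM, below the stretch from 2700 to 2899 at 230 and 243 CPM.

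Most positions of the stretch had no oxidized end at all. In the NextSeq oxidized libraries 625, 657 and 629 of the 760 positions were at 0, and in the MiSeq oxidized libraries 622 and 632, against 68 to 110 in NextSeq and 53 and 56 in MiSeq controls. Outside the known sites, 82.3% to 86.6% of the stretch was thus at 0 in an oxidized NextSeq library, but only 50.5% to 52.1% of the rest of 28S. This was not particular to the stretch. The stretch from 420 to 1299 had 79.4%, 83.2% and 81.25% of its positions at 0 in the oxidized NextSeq libraries. In the oxidized MiSeq libraries it had 82.2% and 82.3% at 0, against 81.9% and 83.3% in the stretch examined here. Where a library has 0 counts, its true level may still reach 3 counts, which is 0.219 to 0.244 CPM in NextSeq and 1.91 to 2.22 CPM in MiSeq oxidized libraries. Taken as 3 reads, these limits are 10.95 to 12.2 and 95.6 to 111 CPM, so that a weak peak could not have been detected at this depth, in the MiSeq libraries in particular.

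Of the 759 positions other than G3626, 520 were at 0 in all 3 oxidized NextSeq libraries (68.5%, against 32.8% of the rest of 28S) and 591 in both oxidized MiSeq libraries (77.9%, against 50.2%). Counts in every oxidized library were found at 32 positions in NextSeq (4.22%, against 31.2% of the rest) and at 96 in MiSeq libraries (12.6%, against 38.8%). These shares are set against the rest of 28S as a whole, and not against the stretch from 420 to 1299. The highest count at any of the 759 positions in 1 oxidized library was 904 in NextSeq and 652 in MiSeq libraries. In NextSeq libraries 705 never exceeded 60 counts, or about 1 read, and 11 exceeded 200.

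With a fold threshold of 7 on the log2 scale and adjusted P-values below 0.05, G3626 was the only position of the stretch called higher in oxidized libraries, 1 of 708 tested in NextSeq and 1 of 711 in MiSeq libraries, while over all positions 1.53% and 2.36% were called. At the stricter P-value limit of the study, 0.0001, the quasi-likelihood fit of edgeR called none of the 760 positions in either experiment, and none of all positions tested. Among the 760, 7 in NextSeq and 4 in MiSeq libraries were higher at an unadjusted P-value under 0.05. The share of all positions at this limit was not taken, so these counts are not a result about the stretch. DESeq2's Wald test called G3626 alone in NextSeq libraries (1.47% of all positions) and 3 positions in MiSeq libraries (2.34%), which were G3626, C3649 and G3658. C3649 was named after its values were seen. It had 0 and 50 oxidized counts and G3658 had 100 and 0, and both were at 0 in both MiSeq controls, so that 1 library and about 1 or 2 reads carry each of these calls. In the NextSeq libraries neither was higher after oxidation, with 250, 200 and 7062 control counts against 0, 0 and 0 oxidized counts at C3649, and with 2368, 2763 and 6123 against 0, 2 and 0 at G3658.

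Lower calls were frequent, but their number changed with the fit, in the stretch and over all positions. In NextSeq libraries 233 of 708 tested positions of the stretch were lower after oxidation at an adjusted P-value under 0.05, where 18.8% of all positions were, and in MiSeq libraries 569 of 711, where 51.6% of all positions were. Over all positions, 1262 were lower in NextSeq and 3437 in MiSeq libraries. With the closest NextSeq libraries averaged the count in the stretch was 21 (170 over all positions), and with the replicate block it was 11 (64) in NextSeq and 0 (0) in MiSeq libraries. With counts divided by 50 it was 0 (2) in NextSeq and 474 (2330) in MiSeq libraries. Other settings raised the NextSeq count in the stretch, to 335 (2221) with DESeq2 and 340 (1778) with passage as a covariate. With filterByExpr it was 309 (1627), and with library totals only 465 (4332). Without NextSeq control replicate 1, 2 or 3 it was 4, 11 or 301 (22, 68 or 1686). With NextSeq oxidized replicate 1, 2 or 3 left out it was 149, 114 or 124 (1067, 882 or 921). Without MiSeq control replicate 1 or 2 it was 0 or 1 (27 or 29). As a share of the library, 580 of the 759 positions were lower in every oxidized than in every control NextSeq library, and 675 in the MiSeq libraries, where over all positions 82.9% and 68.8% were.

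The size of a fall is bounded by depth. The positions of the stretch had a median log2 fold change of -10.32 in NextSeq and -12.96 in MiSeq libraries, against -2.25 and -4.76 over all positions, but most of them rest on counts of 0, where the fitted value is no measure of size. With a floor of 3 reads (150 counts) over each group, the median log2 ratio of pooled shares was -2.57 or lower for the stretch and -3.90 or lower for the rest of 28S in NextSeq, and -1.11 or lower and -0.16 or lower in MiSeq libraries. At or under this floor of 3.82 CPM were 95.7% of the positions in the NextSeq oxidized libraries, against 67.8% of the rest of 28S. The median of all positions moved from -2.25 to -6.26 when the NextSeq libraries were scaled by their totals alone, so that the levels of background positions are given here as counts.

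Control ends were uneven along the stretch, and most uneven at G positions in NextSeq control replicates 1 and 2. G3256 had 189700 and 199768 counts there, the highest of the stretch, but 1716 in control replicate 3. G2916 had 173287, 171108 and 5397, G2915 133555, 131774 and 5756, G3255 102810, 117961 and 1568, and G2911 111230, 118531 and 35677 counts. Each of these 5 positions was thus more than 3 times higher in replicates 1 and 2 than in replicate 3, although the totals of the 3 libraries are alike. The 10 highest positions of a library held 32.9%, 32.1% and 12.6% of the background ends of the stretch in control replicates 1, 2 and 3.

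The same positions were close to empty after oxidation. G2916 and G3255 were at 0 in all 3 oxidized NextSeq libraries, which sets their share at least 400-fold and 254-fold lower than in the controls pooled (floor of 3 reads over the group), and both were called lower (adjusted P-values 0.0359 and 0.0405). With counts divided by 50, neither kept its call (0.0986 and 0.112), and no position of the stretch was called lower. G3256 had 50, 50 and 0 oxidized counts and missed the threshold (log2 fold change -5.70, SE 2.30, adjusted P-value 0.117). G2915 had 758, 308 and 602 oxidized counts and was not called either (-1.12, SE 1.22, adjusted P-value 0.553). With library totals only, G3256 and G2915 were both called lower (-9.35 and -4.81, adjusted P-values 0.0237 and 0.0200). A further 3 positions at 0 in every oxidized NextSeq library were among the 5 called positions with the lowest fitted values, G2958 with 68718, 68903 and 6562 control counts, G2929 with 45122, 48085 and 33186, and C2969 with 45004, 51769 and 1560. Their shares were at least 165-fold, 144-fold and 112-fold lower than in the controls pooled. These bounds, like those of G2916 and G3255, would be smaller against control replicate 3 alone, which had the fewest counts at each.

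In the MiSeq controls other positions led, and they were mostly A and U. A3129 had 104193 and 53653 counts, A3634 67859 and 53741, A3130 68677 and 35431, U3271 57989 and 24420, and A3270 54926 and 22061. At A3129 the NextSeq controls had 960, 806 and 9350 counts, and at A3270 they had 502, 456 and 13475, so that control replicate 3 was the highest NextSeq library at both. Over the 760 positions, Spearman's rho with the MiSeq controls was 0.65 and 0.69 for NextSeq control replicate 3 and 0.33 to 0.37 for replicates 1 and 2, again as a description over positions.

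After oxidation A3129 had 52 and 100 counts in the MiSeq libraries and was called lower (log2 fold change -5.03, SE 0.60, adjusted P-value 0.00693), with A3130 (2 and 0 counts) and U3271 (50 and 2 counts) called lower as well. A3634 kept 652 and 150 counts, the highest mean CPM of the MiSeq background positions, and missed the threshold (-2.40, SE 0.74, adjusted P-value 0.0539). With library totals only it was called lower (-2.65, adjusted P-value 0.0435). The 5 called positions with the lowest fitted values in MiSeq libraries, which at counts of 0 do not rank the size of a fall, were G3131, G3128, C3264, G3269 and C3263. They had 17483 to 48719 control counts and 0 in both oxidized libraries. Their shares were at least 16.4-fold to 19.05-fold lower, with a floor of 3 reads over the group.

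The base at which background ends stopped differed between the controls in the same way. A and U make up 15.4% of the 759 positions other than G3626, but took 6.85% and 6.64% of the background ends in NextSeq control replicates 1 and 2, 30.3% in replicate 3 and 24.2% and 23.7% in the MiSeq controls. In oxidized libraries they took 23.5% to 28.1% in NextSeq and 29.7% and 32.4% in MiSeq libraries. The share of ends at G was 53.3%, 53.0% and 37.7% in NextSeq controls against 35.4%, 23.1% and 36.3% after oxidation, and 33.5% and 34.2% against 26.6% and 28.6% in the MiSeq experiment. No base passed a test between oxidized and control libraries (exact permutation test over libraries, adjusted over the 4 bases, P = 0.4 for A, G and U and 0.5 for C in NextSeq, and 0.44 or more in MiSeq libraries). In the rest of 28S replicate 3 also had the most of the 3 NextSeq controls, with 20.7%, 20.6% and 51.5% of background ends at A or U in NextSeq control replicates 1, 2 and 3, where A and U make up 33.1% of positions.

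In windows of 40 nt, background of the oxidized NextSeq libraries was highest at both edges of the stretch. NextSeq control replicate 3 also had its highest levels there (220 CPM per position in the first and 115 CPM in the last window). In the other controls of both experiments this was not so. The first window (2900 to 2939) held 26.4% of the background ends in NextSeq controls and 26.8% in the oxidized NextSeq libraries, and the last (3620 to 3659), which has 42.5% G and C and holds G3626, held 8.30% and 24.9%. Together these 2 windows make up 10.4% of the positions but took 47.5% to 55.9% of the background in oxidized NextSeq libraries, 32.3% to 38.5% in NextSeq controls, 24.3% and 27.7% in oxidized MiSeq libraries and 11.9% and 14.98% in MiSeq controls. In the MiSeq oxidized libraries the window with the most background was instead 3380 to 3419, with 21.6% of the ends, against 10.5% in the MiSeq controls and 2.51% in the oxidized NextSeq libraries. Across the 19 windows, the share of G and C and the mean CPM had a Spearman's rho of -0.40 to -0.62 in oxidized NextSeq, -0.25 and -0.29 in oxidized MiSeq, -0.16 to -0.25 in NextSeq control and -0.039 and -0.0035 in MiSeq control libraries, as a description of neighbouring windows of 1 sequence.

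**Figure D4:**
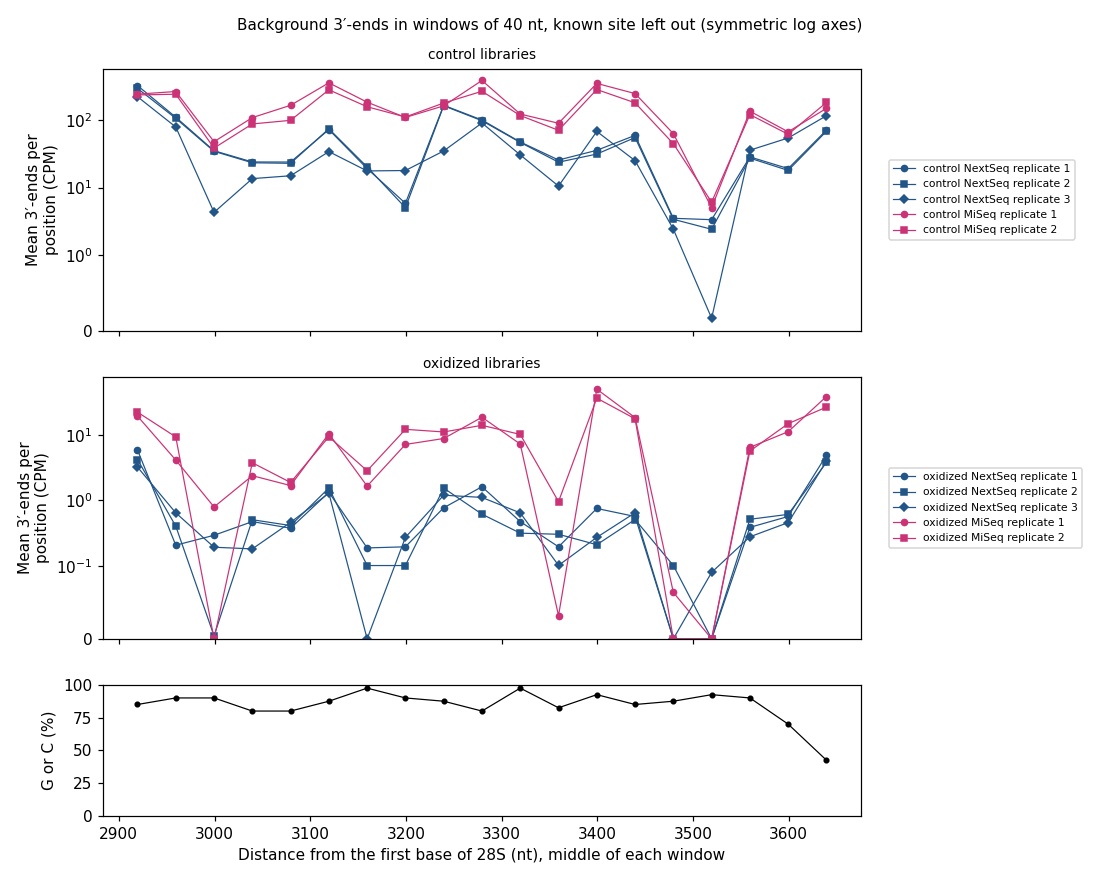
Mean 3′-ends per position (CPM, symmetric log axes) in 19 windows of 40 nt for each control (top) and oxidized (middle) library, with G3626 left out, and the share of G and C per window (bottom). The window from 3500 to 3539 is the lowest in all 5 controls, the first window is the highest in the NextSeq controls, and the window from 3380 to 3419 is the highest in the oxidized MiSeq libraries.

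At the 5′ edge, C2912 and G2915 had the most oxidized ends of the stretch after G3626 in the NextSeq libraries. C2912 had 758, 904 and 206 counts in oxidized and 19962, 20506 and 18829 in control libraries. In the edgeR fit with TMM factors it had no call (log2 fold change 1.48, SE 0.80, adjusted P-value 0.228). With library totals only it was called lower (-2.42, adjusted P-value 0.0391). In MiSeq libraries it had 2 and 100 oxidized against 14414 and 12357 control counts, and G2915 was at 0 in both. U3639, near the 3′ edge, had 304, 206 and 305 oxidized NextSeq counts against 19680, 21248 and 10367 (0.39, SE 0.75, adjusted P-value 0.748). It too was called lower with library totals only (-3.44, adjusted P-value 0.0106). None of the 759 other positions had a larger share in every oxidized than in every control NextSeq library, where 1.60% of all positions had.

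In MiSeq libraries 3 of the 759 did, where 13.8% of all positions had, namely C3231, A3641 and U3644. A3641 had 452 and 302 counts after oxidation and 1160 and 1008 without it, in libraries of far fewer counts, and rose by a log2 fold change of 3.37 (SE 0.35, adjusted P-value 0.00693). In NextSeq libraries it had 154, 204 and 50 oxidized against 1558, 1666 and 15901 control counts and was not called (1.40, SE 1.05, adjusted P-value 0.375). U3644 had 52 and 52 against 502 and 550 counts in MiSeq libraries (1.55, SE 0.41, adjusted P-value 0.0369), and C3231 150 and 100 against 1872 and 1363 (1.21, SE 0.35, adjusted P-value 0.0459). With library totals only, U3644 and C3231 lost their calls (adjusted P-values 0.0683 and 0.0756), and with the replicate block U3644, C3231 and A3641 did (0.376, 0.314 and 0.170). All 3 stayed well below the fold threshold of 7, and their oxidized counts stand for about 1 to 9 reads.

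A3214 was the only position of the stretch on the study's list of candidates from the pilot, if that list numbers 28S as the counts do, which could not be checked. The deposited MiSeq counts at this position were 50 and 54 in oxidized and 5072 and 2683 in control libraries, and its log2 fold change was -1.26 (SE 0.40, adjusted P-value 0.0581). With library totals only it was called lower (-1.50, adjusted P-value 0.0286). In NextSeq libraries it had 50, 0 and 6412 control counts and 0 in all oxidized libraries (adjusted P-value 0.248), so that its control level there rests on replicate 3.

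The effect of oxidation differed between the MiSeq and NextSeq experiments at 19 of 714 tested positions of the stretch, 9 with a larger and 10 with a smaller value in MiSeq libraries (interaction term, adjusted P-value under 0.05), where 8.2% of all positions did. With library totals only, 36 positions passed, or 5.04% of those tested in the stretch against 15.9% of all positions, and 15 of them were among the 19. Each of the 19 was at 0 in all oxidized libraries of an experiment or within 2 counts of it, or at 0 in both MiSeq controls. G3396 is an example, with 406 and 102 oxidized MiSeq counts against 7681 and 3990 in control, and 0, 0 and 0 oxidized NextSeq counts against 1108, 1366 and 4268. U3387 nearby had 306 and 204 against 36755 and 21563 counts in MiSeq libraries, where it was called lower (log2 fold change -1.91, SE 0.31, adjusted P-value 0.0102), and it too was at 0 in all oxidized NextSeq libraries, but its difference between experiments missed the threshold (adjusted P-value 0.0651).

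One run of the stretch was blind in all libraries. The 46 positions from C3482 to C3527 had no count in any of the 10 libraries, and no other position of the stretch was without counts throughout. The run, printed in capitals above, holds 28 G, 16 C, 2 A and no U, or 95.7% G and C. Ends were counted up to its borders in the MiSeq controls, with 7190 and 2620 counts at the position just before it and 852 and 500 at the position just after it. Elsewhere in 28S, runs of at least 5 positions without a control count were found at 0 to 13, 763 to 798 (36 nt), 847 to 904 (58 nt) and 2151 to 2187 (37 nt), and 1 run of 14 nt lay at the first positions of 18S. The 3 longer ones have 75.0% to 91.4% G and C. For the 46 positions, nothing can be said on methylation from these libraries.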

How the data were processed

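RibOxi-seq 3′-ends were counted in 10 libraries of PA1 cells. The authors trimmed reads with cutadapt (version 1.12), collapsed PCR duplicates by a randomer of 6 bases, aligned with TopHat2 (2.1.1) to hg19 and converted alignments with SAMtools (0.1.19), per the labels, the submitters' processing notes and the study's methods. They deposited raw counts of sense 3′-ends per position, without normalization. Lines that name no position had 0 counts and do not enter. The authors' comparison tables, which hold fold changes, p-values and lists of called positions, were not used. The annotation used here has no entries on the rRNA contig, so the bounds of expansion segment 27 are those of the chosen positions.

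Oxidized and control libraries were compared with edgeR 4.0.16 in R 4.3.3 (TMM, quasi-likelihood test, positions at 0 throughout an experiment left out, Benjamini-Hochberg adjustment over 18S and 28S). NextSeq and MiSeq libraries were fitted separately, and the interaction was fitted over all 10. The standard error is the log2 fold change over the square root of F. Shares and densities were compared by exact permutation over libraries (scipy 1.17.1). The study's tool, DESeq2 (1.42.0), was an alternative. Scripts were tested on simulated data with known folds. Known sites were matched by exact position, and 104 of 106 have the listed base in the reference.

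Positions named are G3626 and the 5 positions on each side, A3214, the 5 with the highest mean oxidized and control CPM and the 5 with the largest and smallest log2 fold change at an adjusted P-value under 0.05 in each experiment, the longest run without control counts, and the nearest known sites outside. The members were set by position alone, but the choice of this stretch, the lists and the thresholds were made with earlier results of these data known. The difference between experiments with library totals only was added after seeing the data.

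No pairing by replicate number was seen, but the check could not decide it. Deviations from group means correlated at -0.02 to 0.03 between same-numbered and at -0.03 to 0.03 between other-numbered NextSeq libraries, with many oxidized positions at 0. In the MiSeq libraries the value was -0.01, where 2 libraries per group leave only its sign free. Same-numbered NextSeq libraries share their passage, and the replicate block was fitted as an alternative.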

Additional observations from a re-analysis of the deposited data

Results flagged for a closer look

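The effect of oxidation differed between the MiSeq and the NextSeq experiment at 3 of the positions named, by a test of the difference itself (interaction term of edgeR's quasi-likelihood fit, Benjamini-Hochberg adjustment over 6732 positions). At G3658 it was 19.31 larger on the log2 scale in the MiSeq libraries (SE 4.13, adjusted P-value 0.0287), where both MiSeq controls were at 0 and 100 counts in oxidized replicate 1 carry the value. At G3396 it was 13.10 larger (SE 2.52, adjusted P-value 0.0265), with no count in any oxidized NextSeq library. At A3628, 2 nt after the known site, it was -16.13 (SE 2.15, adjusted P-value 0.0130), that is, smaller in the MiSeq libraries, with 100, 150 and 50 oxidized NextSeq counts and none in the oxidized MiSeq libraries. With library totals only the values were 22.88, 13.13 and -12.72, with adjusted P-values of 0.0179, 0.0127 and 0.0156. The fitted sizes rest on counts of 0 and are no measure of size, and the part that depth had in them was not tested.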

How the results depend on the processing

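G3626 kept its call under every NextSeq alternative and every MiSeq alternative except the replicate block (log2 fold change 8.47, adjusted P-value 0.166). Leaving out 1 library gave 11.37 to 12.30 in NextSeq and 7.88 to 9.05 in MiSeq libraries. Positions called higher numbered 3 with DESeq2 and 0 with the replicate block in MiSeq libraries, and 1 in NextSeq and 1 to 2 in MiSeq libraries when 1 library was left out. Positions called lower numbered 465 in NextSeq libraries with library totals only, where 4332 of all 6718 positions were called. They numbered 0 with counts divided by 50, 11 with the replicate block and 21 with the closest libraries averaged in NextSeq libraries, and 0 with the replicate block in MiSeq libraries. With 1 library left out they numbered 4 to 301 and 0 to 640. The replicate block keeps fewer residual degrees of freedom, and the other causes were not tested. For each count of 0 the tool was edgeR, and at an unadjusted P-value under 0.05, 109 positions were lower with counts divided by 50 and 294 with the MiSeq replicate block, and 2 were higher with the latter. The share of all positions at this unadjusted limit was not taken. The replicate block changed no other call of G3626 or of higher positions.

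The median log2 fold change of the stretch was -4.93 with DESeq2, -10.70 with library totals only, -10.72 with filterByExpr and -5.41 with counts divided by 50 in NextSeq libraries, and -8.46 with DESeq2 and -7.55 with counts divided by 50 in MiSeq libraries. With 1 library left out it was -11.42 to -8.99 and -13.76 to -12.17. The control gap at G3626 was 0.952 and 0.448 with 20 positions on each side. The drop in the share of ends outside known sites stayed between -3.23 and -2.63 percentage points in NextSeq and between -10.9 and -8.96 in MiSeq libraries when 1 library was left out, and the density in the stretch between -1.42 and -0.95 in control and between -3.18 and -3.02 in oxidized libraries. A median density of oxidized libraries could not be had, since more than 50% of positions were at 0.

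Of 1089 fits of the other named positions, 868 stayed on their side of the threshold or gave no adjusted P-value, 154 lost a call, 61 gained one and 6 turned direction where either fit had a call. With library totals only the NextSeq values of C2912, G3625, U3639, G3627 and A3628 were -2.42, -0.997, -3.44, -3.38 and -3.46. All of these but G3625 were then called lower (adjusted P-values 0.0106 to 0.0391). A3623 ran from -11.15 to 2.95 in MiSeq libraries with 1 library left out, the lowest without oxidized replicate 2.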
